A study of Mus musculus with 36 samples.

Results

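The mitochondrial ribosomal proteins are the nuclear-encoded proteins of the ribosome inside mitochondria. They were taken as every gene whose symbol begins with Mrpl or Mrps followed by a number, and the estimated reads of all transcripts of a symbol were summed. This gave 78 genes of the 21156 in the table, 49 of them named for the large subunit (Mrpl) and 29 for the small subunit (Mrps), on 17 chromosomes. The symbols alone decided which genes were taken, and earlier results of these data were known when the set was chosen.

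RNA came from the soleus, a postural muscle of the calf, of male mice of the C57BL/6J strain. Each of the 36 libraries was made from a single mouse. Old mice, 22 to 24 months of age, were kept as controls for 10 days (9 libraries), had their hind limbs unloaded for 10 days (6 libraries), or were unloaded for 10 days and then reloaded for 3 days (4 libraries). Young mice, 6 months of age, formed the same 3 groups (9 control, 4 unloaded and 4 reloaded libraries). Lifting the hind limbs off the ground makes the soleus waste, and reloading lets it bear weight again.

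The mitochondrial ribosome translates only the few messages that the mitochondrial genome encodes for proteins, all of them for core subunits of the respiratory chain and ATP synthase. Its ribosomal RNAs are made inside the mitochondrion, while its proteins are made in the cytosol from nuclear genes and imported. Some of these proteins have counterparts in bacterial ribosomes, and others were added during the evolution of mitochondria. Soleus fibres are rich in mitochondria, and muscle disuse is known for lowering mitochondrial content.

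Symbol and structure differ for 3 of the genes. Mrps18a and Mrps30 have small-subunit names, although structures of the mammalian ribosome place their proteins in the large subunit. Mrps36 encodes a part of the 2-oxoglutarate dehydrogenase complex of the citric acid cycle. All were kept under their symbols, and the assignment by structure (51 large, 26 small) served as an alternative.

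Between 32 and 37.9 M reads per library fell on genes. Of all genes, 15031 had enough reads for a test, including all 78 ribosomal protein genes. Levels are counts per M reads (CPM) on totals scaled by TMM, edgeR's trimmed mean of M-values, and changes are log2 fold changes ± SE. "Rose" and "fell" are used below of genes with an adjusted p under 0.05 in edgeR's quasi-likelihood test, with Benjamini-Hochberg adjustment over all 15031 genes. The 6 slow-fibre markers were above 0 in every library, with Myh7, the slow myosin heavy chain, between 9077 and 20260 CPM. In 6 libraries Alb, the liver gene for serum albumin, exceeded 20 CPM: young unloaded 2, young reloaded 1 and 2, old unloaded 6, and old reloaded 2 and 4. The summed level of 6 liver markers was 0.558 to 2458 CPM in old reloaded muscles and 1.67 to 108 CPM in young reloaded muscles, and Apoa1, Ttr and Fgb were at 0 in 10, 13 and 12 of the 36 libraries. The main counts are also given without those 6 libraries. Of the reloaded libraries, that leaves only old reloaded 1 and 3 and young reloaded 3 and 4. Among the ribosomal protein genes, 4 overlap another gene on the same strand and 7 on the other strand, and 4 (Mrpl23, Mrpl27, Mrpl48 and Mrps36) have pseudogenes named in RefSeq, so their reads could be shared with these.

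Per transcript length, the genes differed widely in level within control muscle. In the deposited RPKM values (reads per kilobase of transcript per M reads), Mrpl42, a protein specific to mitochondrial ribosomes, was highest with 83.2 ± 5.69 RPKM in old controls and 99.1 ± 7.26 RPKM in young controls (SD, n = 9 each). Mrps25, of the small subunit, was lowest with 2.14 ± 0.209 RPKM in old controls and 2.50 ± 0.199 RPKM in young controls (SD, n = 9 each). The median level of the large-subunit genes was 13.3 RPKM in old controls and 14.1 RPKM in young controls. That of the small-subunit genes was 13.7 RPKM in old controls and 15.3 RPKM in young controls. From mouse to mouse the CPM of the 78 genes had a median coefficient of variation of 7.20% in old controls and 6.99% in young controls. For all genes in the same range of levels it was 9.11% in old controls and 7.15% in young controls.

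**Figure D1:**
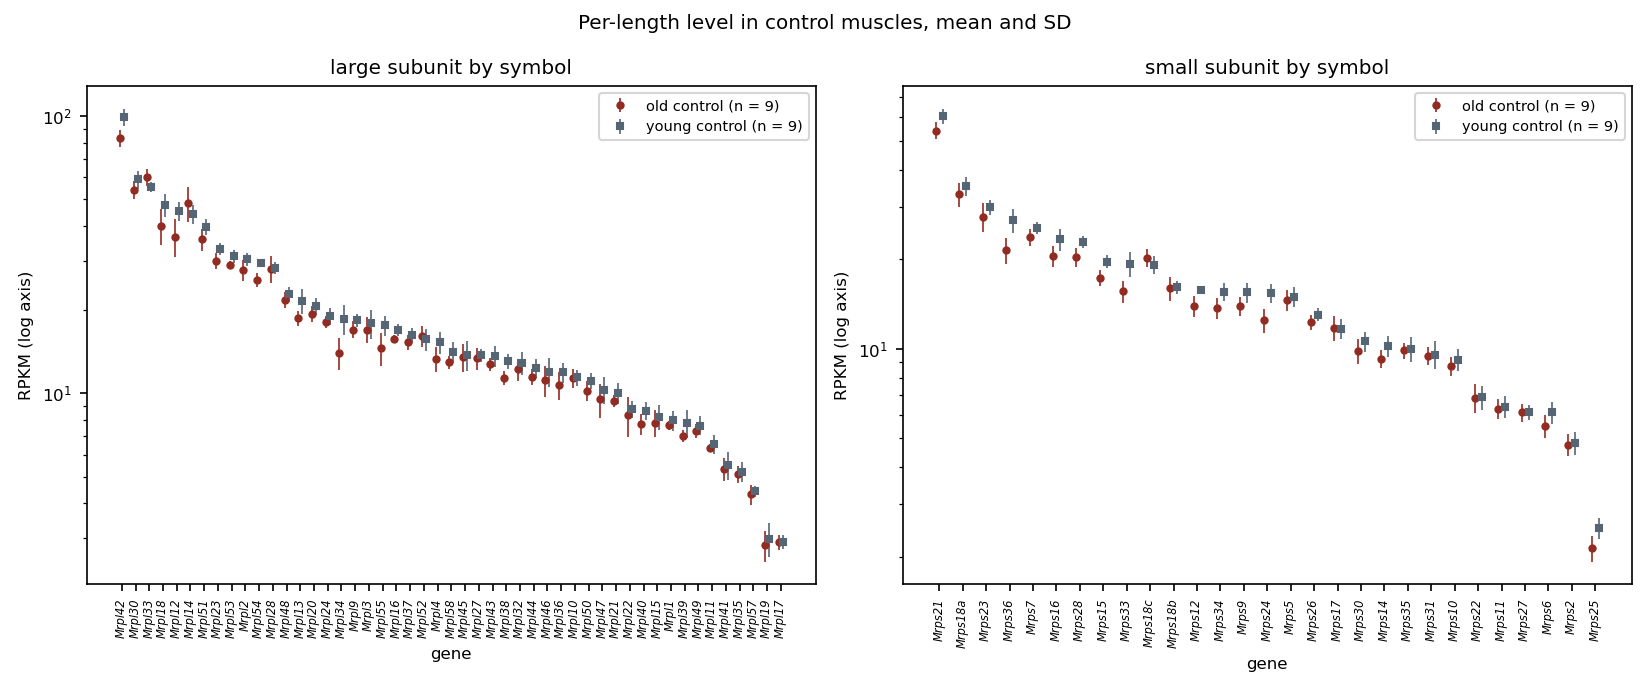
Mean RPKM (log axis) of each large-subunit gene (left) and small-subunit gene (right) in old controls (circles) and young controls (squares), ordered by the young level, with SD over 9 libraries each. Mrpl42 is highest and Mrps25 lowest in both groups.

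Many of the genes start close to another gene. The start of another gene, read in the opposite direction, lay within 1000 bases of 28 of the 78 (35.9%), against 2168 of 21149 genes in all (10.3%). The 21149 include genes with too few reads for a test, while all 78 were tested. The share among tested genes was not computed. Mrpl46 and Mrps11, of opposite subunits, start 42 bases apart on chromosome 7. Mrps12 faces Sars2, the gene of the mitochondrial seryl-tRNA synthetase, at 187 bases. Mrpl43 faces Twnk, the gene of the mitochondrial DNA helicase, at 116 bases.

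Promoter sequences from RefSeq (build GRCm38.p6), reaching from 250 bases before the start to 50 after it, were matched for 69 of the 78 genes (75 promoters). The other 9 were Mrpl4, Mrpl13, Mrpl15, Mrpl19, Mrpl38, Mrpl54, Mrps28, Mrps34 and Mrps35. The letters of 6 motifs were searched on both strands. GCGCANGCG, for nuclear respiratory factor 1 (NRF1), stood in 21.3% of these promoters, against 11.7% of the 14504 promoters of tested genes. CCGGAAG, for the ETS family, which includes GABP, stood in 34.7%, against 15.3%. AANATGGCG, for YY1, stood in 14.7%, against 4.37%. At least 1 of these 3 stood in 43 promoters (57.3%), against 27.3% of promoters of tested genes. GGGCGG, for SP1, stood in 52.0%, against 58.9%, and CCAAT, for NF-Y, in 40.0%, against 37.2%. TCAAGGTCA, for the oestrogen-related receptors, stood in 0 of the 75, against 0.276%. By subunit, the NRF1 letters stood in 25% of large-subunit and 14.8% of small-subunit promoters, and the ETS letters in 31.2% of large-subunit and 40.7% of small-subunit promoters. ETS and SP1 matches shared bases in 2 promoters, and no other pair of motifs did. A match describes the letters and does not show binding.

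Promoters of 5 genes are shown because the results below turn on them or, for Mrps11, because the same stretch also holds the start of Mrpl46. Mrpl12 and Mrpl45 had some of the deepest falls on unloading, Mrps12 had the largest rise on reloading in old mice, and Mrps30 was the only gene called higher on unloading. Capitals mark NRF1, ETS and YY1 matches only, given by the position of their leftmost base, where the RefSeq start is 1. For Mrpl12 and Mrps12 this start lies upstream of the one in the gene coordinates given further below. Matches of SP1 and NF-Y are left in lower case. The marked ones are NRF1 letters in Mrpl12 (-80, other strand) and Mrpl45 (-120, -38 and, on the other strand, 17), ETS letters in Mrps12 (2), and YY1 letters in Mrps11 (-108, other strand) and Mrps30 (16).
Mrpl12, chr11:120484387-120484686, plus strand: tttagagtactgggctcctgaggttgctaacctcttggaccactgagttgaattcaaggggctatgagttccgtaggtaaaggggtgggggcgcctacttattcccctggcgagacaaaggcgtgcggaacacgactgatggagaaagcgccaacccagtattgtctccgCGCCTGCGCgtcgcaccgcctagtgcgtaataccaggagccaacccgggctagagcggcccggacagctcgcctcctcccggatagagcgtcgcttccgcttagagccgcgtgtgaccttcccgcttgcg
Mrpl45, chr11:97315466-97315765, plus strand: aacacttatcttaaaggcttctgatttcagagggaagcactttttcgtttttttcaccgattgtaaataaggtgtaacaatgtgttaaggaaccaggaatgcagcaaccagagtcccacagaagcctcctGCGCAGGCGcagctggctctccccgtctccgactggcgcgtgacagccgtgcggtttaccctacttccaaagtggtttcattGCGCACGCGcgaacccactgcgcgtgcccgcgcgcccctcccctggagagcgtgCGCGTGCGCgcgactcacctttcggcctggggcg
Mrps12, chr7:28741772-28742071, minus strand: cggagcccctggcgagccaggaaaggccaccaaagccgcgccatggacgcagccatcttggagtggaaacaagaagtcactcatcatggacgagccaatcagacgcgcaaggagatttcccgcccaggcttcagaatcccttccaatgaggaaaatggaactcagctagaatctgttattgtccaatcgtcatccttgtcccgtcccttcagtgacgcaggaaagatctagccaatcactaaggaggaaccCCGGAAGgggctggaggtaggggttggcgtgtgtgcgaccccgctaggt
Mrps11, chr7:78782881-78783180, plus strand: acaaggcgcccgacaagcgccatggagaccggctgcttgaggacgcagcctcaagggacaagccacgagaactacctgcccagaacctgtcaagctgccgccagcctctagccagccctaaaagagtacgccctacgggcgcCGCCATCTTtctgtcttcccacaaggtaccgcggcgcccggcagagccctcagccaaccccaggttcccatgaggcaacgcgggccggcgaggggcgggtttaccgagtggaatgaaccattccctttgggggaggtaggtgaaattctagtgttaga
Mrps30, chr13:118387203-118387502, minus strand: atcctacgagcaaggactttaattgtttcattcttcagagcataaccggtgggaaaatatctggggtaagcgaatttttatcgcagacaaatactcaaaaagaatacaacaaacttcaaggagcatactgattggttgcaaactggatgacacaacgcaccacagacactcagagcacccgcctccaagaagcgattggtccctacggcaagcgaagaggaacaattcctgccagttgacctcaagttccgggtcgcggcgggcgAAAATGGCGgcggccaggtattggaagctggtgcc

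Most of the set fell on unloading at both ages. In old mice 67 of the 78 genes fell after unloading and 1 rose, against 23.2% that fell and 19.5% that rose among all genes tested. In young mice 70 fell and 0 rose, against 21.7% that fell and 19.1% that rose among all genes tested. The median log2 fold change of the 78 genes was -0.34 in old mice and -0.43 in young mice, while the median over all genes tested was -0.003 in old mice and 0.004 in young mice. Old and young comparisons share no libraries, and 64 genes fell in both, which is 95.5% of the old and 91.4% of the young calls. With 67 and 70 of 78 genes called, most had to be shared, so this overlap does not measure agreement between the ages. The matching share over all genes tested was not computed. Without the 6 libraries with high Alb, 68 fell and 1 rose in old mice, and 70 fell and 0 rose in young mice. Beside the 0 rises in young mice, edgeR gave 0 at an unadjusted p under 0.05 (all genes tested: 22.8%), and 0 rose by DESeq2. Every unloaded library lay below every control library of its age for 47 genes in old mice and 63 in young mice, as it did for 7.66% of all genes tested in old and 15.2% in young mice. In whole muscle, fewer cells of a type and less RNA per cell cannot be told apart.

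**Figure D2:**
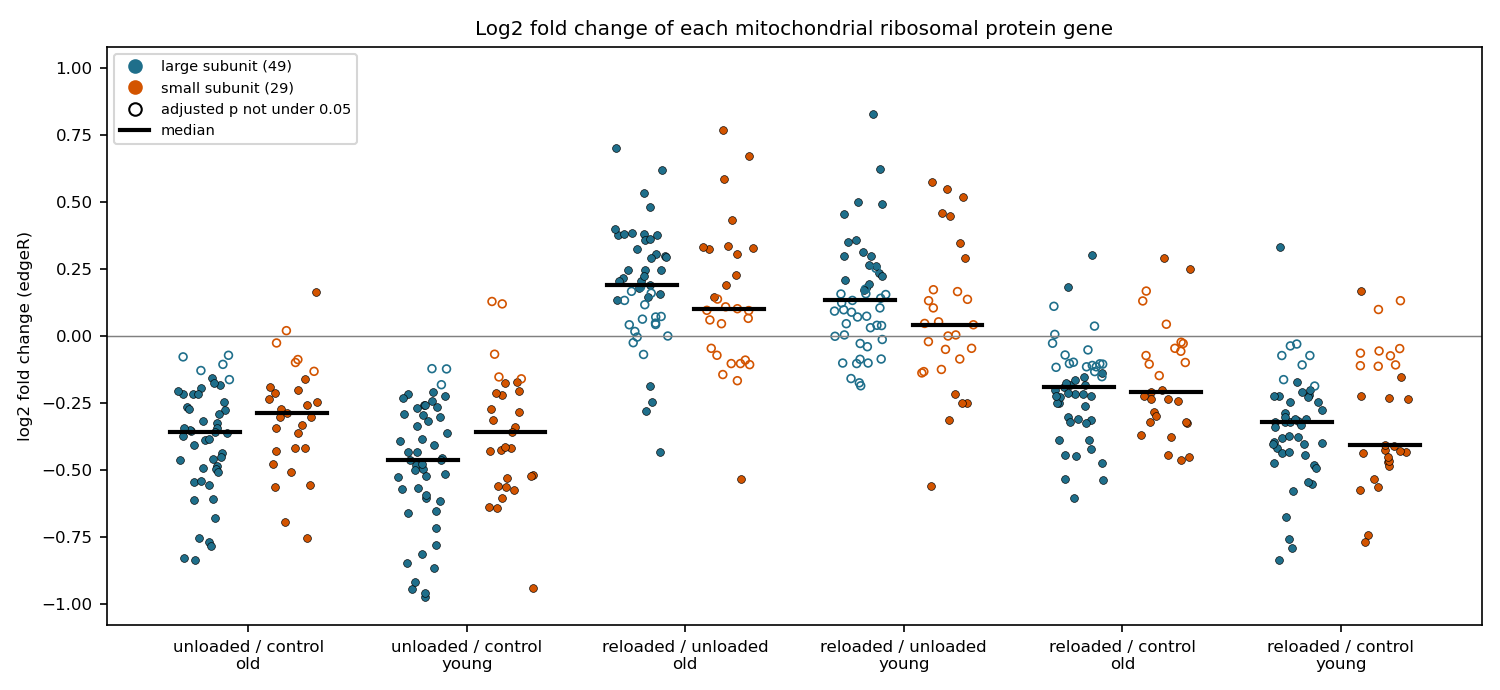
Log2 fold change (edgeR) of each gene in 6 comparisons, with large-subunit genes in blue and small-subunit genes in orange. Filled points are called, open points are not, and bars are medians: nearly all points lie below 0 for unloaded over control, and points lie on both sides of 0 for reloaded over unloaded.

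In the large subunit, the stalk, where translation factors dock, is built with Mrpl10, Mrpl11 and Mrpl12, and all 3 fell at both ages. Mrpl12 (chr11:120484669-120488755, plus strand, mm10) is the counterpart of bacterial L7/L12, and its human protein has been reported to bind the mitochondrial RNA polymerase. It stood at 25.6 to 37.7 CPM (median 31.4) in old unloaded muscles, against 43.7 to 69.8 CPM (median 52.5) in old controls. Young unloaded muscles held 34.3, 36.9, 33.9 and 32.6 CPM, against 58.97 to 72.4 CPM (median 66.1) in young controls. Unloaded and control libraries did not overlap at either age, and the log2 fold change was -0.77 ± 0.08 in old mice (edgeR adjusted p = 2.84e-09) and -0.94 ± 0.09 in young mice (edgeR adjusted p = 9.77e-10). For Mrpl10, which carries the stalk, it was -0.35 ± 0.05 in old mice and -0.46 ± 0.06 in young mice, and for Mrpl11, at the stalk's base, -0.18 ± 0.05 in old mice and -0.29 ± 0.06 in young mice.

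In the central protuberance, at the top of the large subunit, 7 of 7 listed genes fell in old mice and 6 in young mice. Mrpl18 (chr17:12911355-12916092, minus strand, mm10), whose bacterial counterpart binds the 5S rRNA, had the lowest change of the 78 genes in young mice. It stood at 30.2 to 39.2 CPM (median 33.3) in old unloaded muscles, against 48.1 to 72.1 CPM (median 60.5) in old controls. Among young mice, unloaded muscles held 36.5, 38.2, 34.3 and 34.6 CPM, against 65.1 to 80.1 CPM (median 68.1) in young controls. The groups did not overlap at either age, and the log2 fold change was -0.83 ± 0.07 in old mice (edgeR adjusted p = 1.75e-10) and -0.97 ± 0.09 in young mice (edgeR adjusted p = 1.41e-10).

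Around the exit tunnel, through which the new peptide leaves, 6 of 7 listed genes fell in old mice and 6 in young mice. Mrpl45, which ties the ribosome to the inner membrane, had a log2 fold change of -0.78 ± 0.07 in old mice (edgeR adjusted p = 2.91e-10) and -0.92 ± 0.08 in young mice (edgeR adjusted p = 2.77e-10). For Mrpl44, an RNase III-like protein whose human gene is mutated in some cardiomyopathies, it was -0.27 ± 0.05 in old mice and -0.50 ± 0.06 in young mice. Elsewhere in the large subunit, Mrpl34, the counterpart of a very small bacterial protein, fell with -0.84 ± 0.08 in old mice and -0.96 ± 0.10 in young mice, and Mrpl4, the counterpart of bacterial L4, with -0.68 ± 0.06 in old mice and -0.78 ± 0.07 in young mice. The smallest adjusted p of the set was that of Mrpl53 in old mice, at -0.45 ± 0.04 (edgeR adjusted p = 3.15e-11), and that of Mrpl54 in young mice, at -0.65 ± 0.06 (edgeR adjusted p = 5.43e-11). Both are specific to mitochondrial ribosomes, and Mrpl53 overlaps Ccdc142 on the same strand. Over both subunits, 39 of 46 genes with a bacterial counterpart fell in old mice and 42 in young mice. Of 31 genes specific to mitochondria, 27 fell in old mice and 27 in young mice.

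The small subunit binds the message. Mrps12, the counterpart of bacterial S12 in the decoding centre, had a log2 fold change of -0.48 ± 0.06 in old mice and -0.57 ± 0.06 in young mice. For Mrps7, the counterpart of bacterial S7, it was -0.19 ± 0.04 in old mice and -0.28 ± 0.05 in young mice. For Mrps5, the counterpart of bacterial S5, whose expression has been tied to lifespan across mouse strains, it was -0.24 ± 0.05 in old mice and -0.27 ± 0.06 in young mice. In the head of the small subunit 6 of 8 listed genes fell in old mice and 6 in young mice. The deepest fall among the Mrps symbols was that of Mrps36 (chr13:100735940-100744660, minus strand, mm10), the dehydrogenase component. It stood at 10.5 to 16.2 CPM (median 14.6) in old unloaded muscles, against 20.6 to 27.2 CPM (median 24.1) in old controls. The level in young unloaded muscles was 15.7, 15.4, 14.8 and 16.02 CPM, against 26.1 to 33.6 CPM (median 29.1) in young controls. The groups did not overlap at either age, and the log2 fold change was -0.76 ± 0.08 in old mice and -0.94 ± 0.09 in young mice.

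Mrps30 (chr13:118380110-118387253, minus strand, mm10), a large-subunit protein by structure, was the only gene of the set called higher on unloading, in old mice. It stood at 23.8 to 31.6 CPM (median 25.9) in old unloaded muscles, against 21.5 to 27.1 CPM (median 24.5) in old controls. In young mice it stood at 27.1, 25.8, 30.7 and 30.04 CPM in unloaded muscles, against 22.7 to 28.6 CPM (median 26.2) in controls. The ranges overlapped at both ages. Its log2 fold change passed the test in old mice, at 0.16 ± 0.06 (edgeR adjusted p = 0.0296), and did not in young mice, at 0.13 ± 0.07 (edgeR adjusted p = 0.141). The call in old mice held in 16 of 23 alternatives. It was lost with no filter on low counts, with the replicate block or with only the groups compared, and without old control 3, old control 8, old unloaded 3 or old unloaded 5. Mrps10, of the small-subunit head, also had a change above 0 at both ages and was not called, at 0.02 ± 0.06 in old mice (edgeR adjusted p = 0.81) and 0.12 ± 0.07 in young mice (edgeR adjusted p = 0.16).

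The Mrps18 family consists of 3 paralogs whose proteins sit at different places of the ribosome. Mrps18a, placed in the large subunit, stood at 30.5 to 35.6 CPM (median 33.4) in old unloaded muscles, against 39.8 to 50.2 CPM (median 43.2) in old controls. Young unloaded muscles held 34.2, 30.8, 32.4 and 32.8 CPM, against 41.5 to 52.03 CPM (median 47.7) in young controls. Its groups did not overlap, and its log2 fold change was -0.42 ± 0.05 in old mice and -0.53 ± 0.06 in young mice. Mrps18b, of the small subunit, stood at 19.6 to 24.02 CPM (median 21.4) in old unloaded muscles, against 23.5 to 28.99 CPM (median 26.1) in old controls. Among young mice, unloaded muscles held 24.6, 23.9, 23.6 and 20.4 CPM, against 23.9 to 28.2 CPM (median 25.8) in young controls. Its ranges overlapped at both ages, and it fell with -0.29 ± 0.06 in old mice and -0.18 ± 0.06 in young mice; the young call was lost with library totals in place of TMM or with the replicate block, and without young unloaded 4. Mrps18c, the counterpart of bacterial S18, stood at 13.2 to 16.4 CPM (median 14.96) in old unloaded muscles, against 14.3 to 17.4 CPM (median 15.9) in old controls. The level in young unloaded muscles was 14.1, 12.3, 13.8 and 13.01 CPM, against 13.6 to 16.2 CPM (median 14.6) in young controls. Its ranges overlapped and it was not called, at -0.09 ± 0.06 in old mice (edgeR adjusted p = 0.232) and -0.16 ± 0.07 in young mice (edgeR adjusted p = 0.0571). Differences between the paralogs were not tested.

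**Figure D3:**
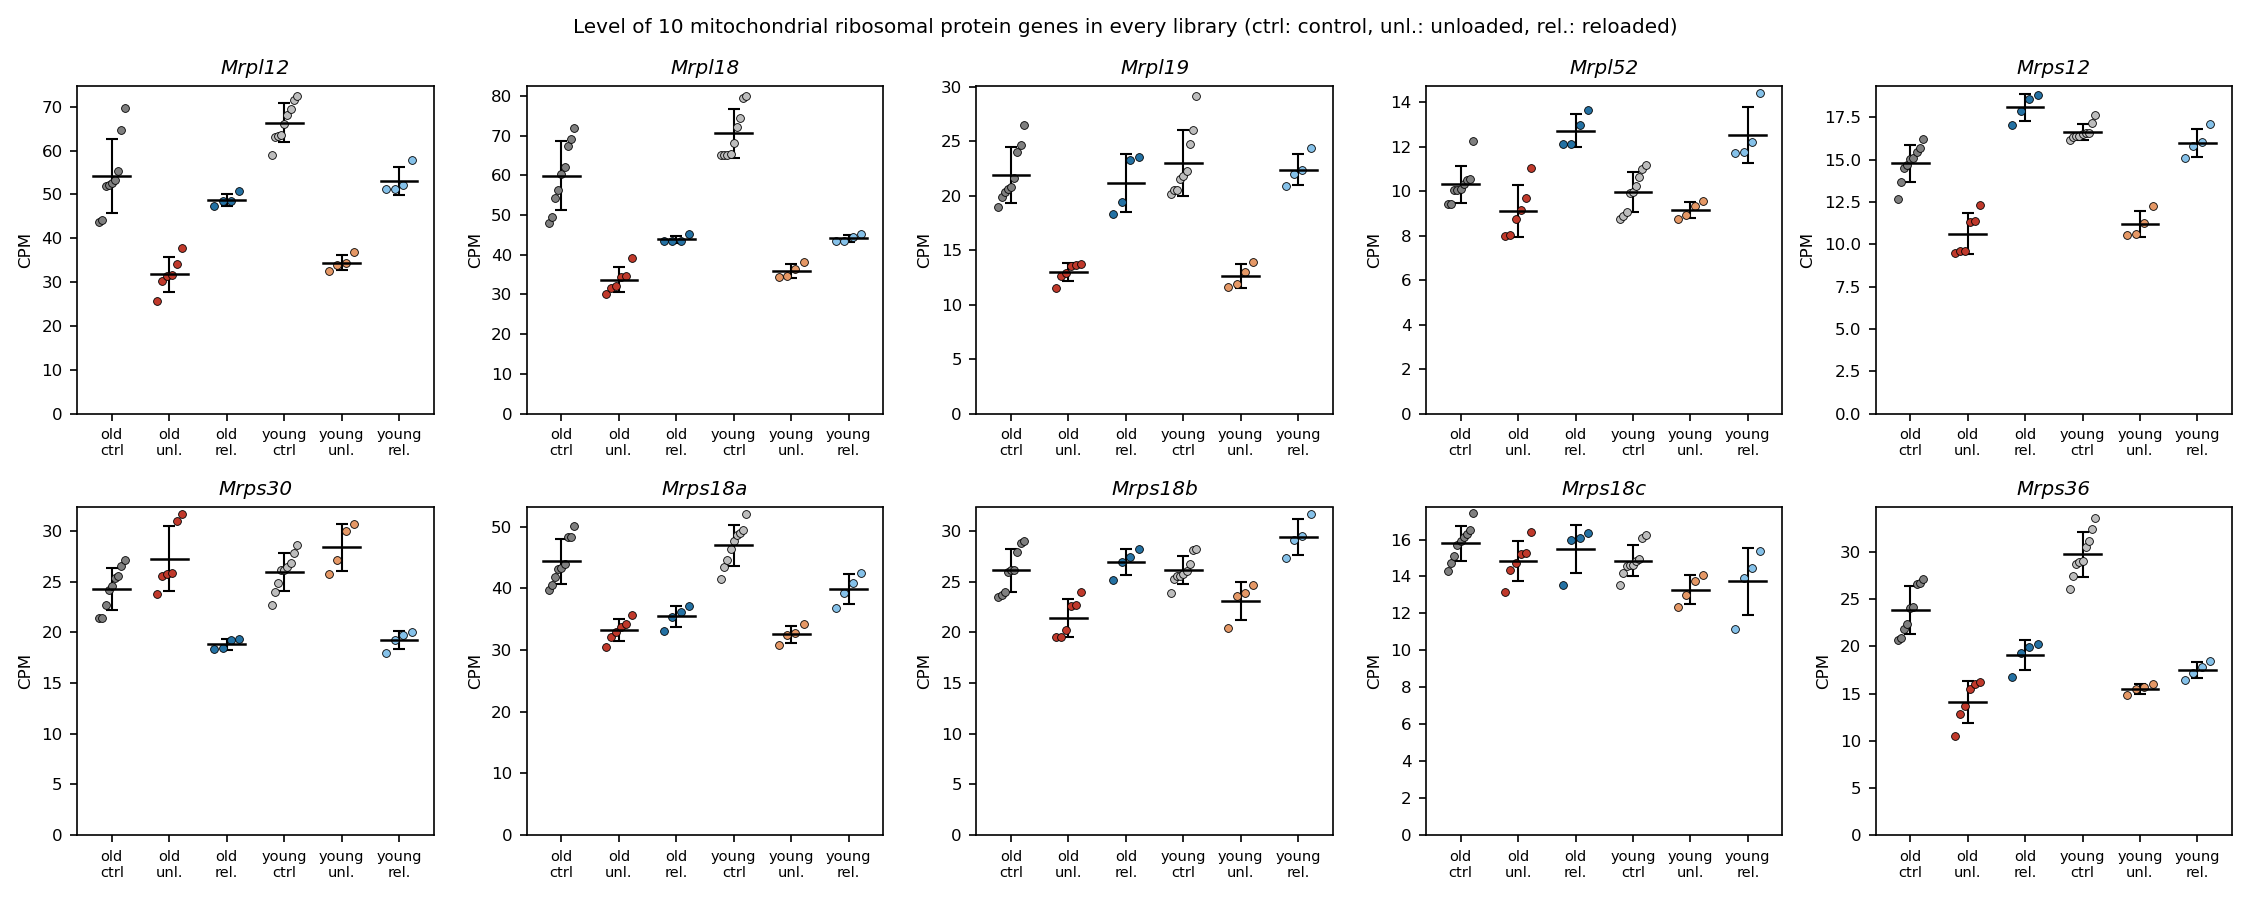
CPM of 10 genes in every library of the 6 groups, with the mean (bar) and SD (whiskers). Mrpl12, Mrpl18 and Mrps36 are lower in every unloaded library than in every control of the same age, and Mrps30 is lowest in the reloaded libraries.

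Summed over the 49 large-subunit genes, old unloaded muscles held 1130 ± 42.99 CPM (SD, n = 6), against 1495 ± 84.4 CPM in old controls (SD, n = 9). Young unloaded muscles held 1131 ± 25.1 CPM (SD, n = 4), against 1605 ± 83.7 CPM in young controls (SD, n = 9). Over the 29 small-subunit genes, the sum was 570.3 ± 20.3 CPM in old unloaded muscles, against 687 ± 34.4 CPM in old controls, and 581 ± 3.52 CPM in young unloaded muscles, against 741 ± 32.5 CPM in young controls. By gene, 44 of 49 large-subunit genes fell in old mice, with a median log2 fold change of -0.36, and 23 of 29 small-subunit genes fell, with a median of -0.29. In young mice 46 large-subunit genes fell, with a median of -0.46, and 24 small-subunit genes, with a median of -0.36.

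The log2 ratio of the large to the small sum was lower in every unloaded library than in every control of the same age. It was 0.939 to 1.023 in old unloaded muscles (mean 0.986 ± 0.034, SD, n = 6), against 1.095 to 1.138 in old controls (mean 1.121 ± 0.015, SD, n = 9). In young mice it was 0.959, 1.006, 0.927 and 0.946 in unloaded muscles, against 1.101 to 1.134 in controls (mean 1.115 ± 0.013, SD, n = 9). The groups also did not overlap when subunits were assigned by structure, when the transcript with the highest mean stood for each gene, or when RPKM values were summed. With RPKM, the ratio was 0.885 to 1.002 in old unloaded muscles, against 1.038 to 1.076 in old controls, and 0.899 to 0.980 in young unloaded muscles, against 1.033 to 1.068 in young controls. No test was made of a sum or a ratio over the genes.

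**Figure D4:**
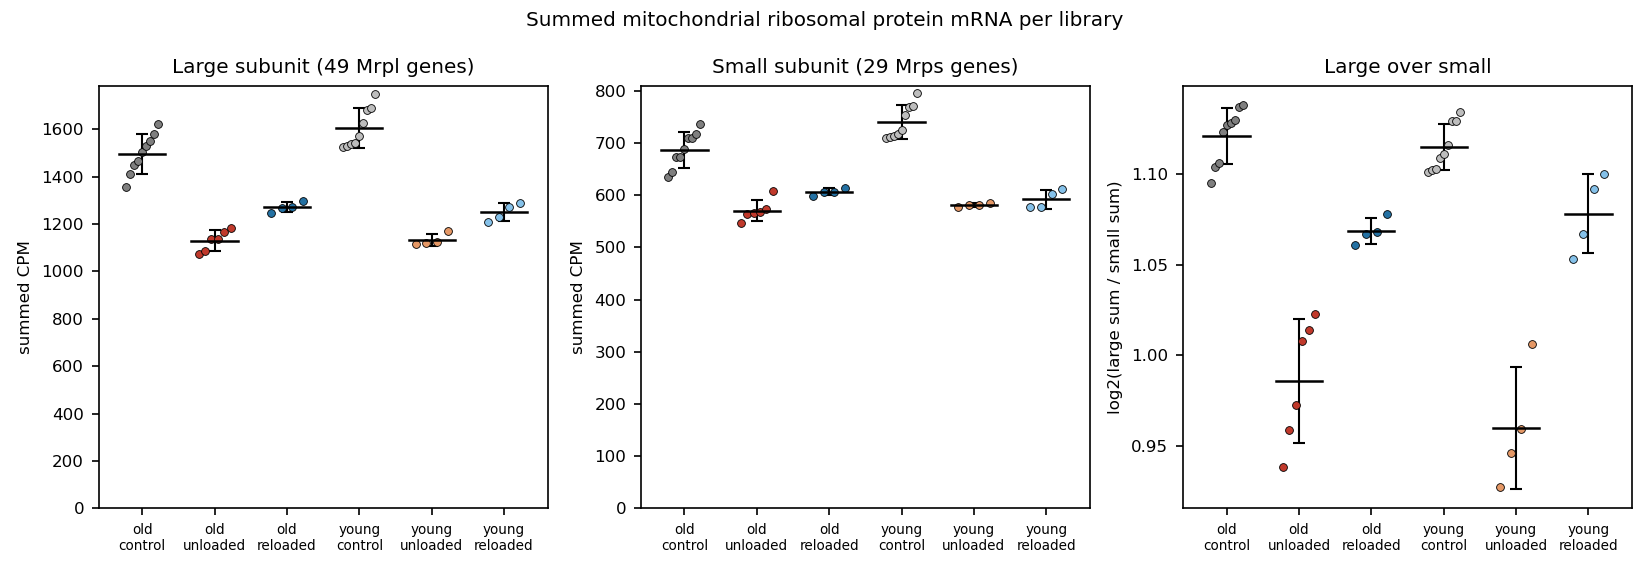
Summed CPM of the large-subunit genes (left) and the small-subunit genes (middle), and the log2 ratio of the sums (right, axis not from 0), in every library, with the group mean (bar) and SD (whiskers). In the ratio, every unloaded library lies below every reloaded and every control library of the same age.

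Markers of fibre types and of other cells moved with unloading. Of 7 fast-fibre markers, none at 0 in any library, 3 rose and 2 fell in old mice, and 2 rose and 2 fell in young mice. Their summed level was 34450 to 54960 CPM in old unloaded muscles, against 19740 to 35040 CPM in old controls, and 48120 to 71760 CPM in young unloaded muscles, against 34280 to 44640 CPM in young controls. The mean of Myh1 was 21770 CPM in old unloaded muscles, against 4023 CPM in old controls, and 34760 against 6396 CPM in young mice. Myh2 went the other way, with means of 6208 against 13100 CPM in old and 4020 against 15050 CPM in young mice. The sum therefore does not show a rise of these markers as a group. Of 6 slow-fibre markers, 3 fell in old and 3 in young mice. Of 12 macrophage markers in old mice 7 rose and 0 fell, with a summed level of 167 to 243 CPM in old unloaded muscles, against 120.5 to 176 CPM in old controls. In young mice 0 rose and 1 fell, with a summed level of 123 to 177 CPM in young unloaded muscles, against 108 to 243 CPM in young controls. Of 5 markers of red blood cells in old mice 0 rose and 5 fell, with a summed level of 60.1 to 136 CPM in old unloaded muscles, against 99.8 to 375 CPM in old controls, and in young mice none was called. Of 6 markers of dividing cells none was called in old mice. In young mice 0 rose and 5 fell, with a summed level of 1.32 to 2.88 CPM in young unloaded muscles, against 3.21 to 19.4 CPM in young controls. Of 6 liver markers in old mice 3 rose and 0 fell, with a summed level of 0.443 to 65.2 CPM in old unloaded muscles, against 0.246 to 2.77 CPM in old controls, and none was called in young mice. The part of fibre types and of these other cells in the fall of the ribosomal protein genes was not tested.

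After reloading, part of the set was higher than in unloaded muscles. In old mice 41 of the 78 rose and 5 fell, against 27.8% that rose and 23.5% that fell among all genes tested. In young mice 25 rose and 5 fell, against 26.4% that rose and 21.5% that fell among all genes tested, so the share of the set that rose there, 32.1%, was near that of all genes. The median log2 fold change was 0.16 in old and 0.10 in young mice, and the median over all genes tested was 0.03 in old and 0.06 in young mice. Of the genes that rose, 24 did so at both ages, which is 58.5% of the old and 96% of the young calls. The share of all genes tested that rose at both ages was not computed. Without the 6 libraries with high Alb, 28 rose and 7 fell in old mice, and 19 rose and 4 fell in young mice. Only old reloaded 1 and 3 and young reloaded 3 and 4 were then left, so fewer libraries and high Alb cannot be told apart. With library totals in place of TMM, 24 rose and 14 fell in old mice, and the median over all genes there was -0.085 in place of 0.028. Relative to that median, the median of the set was 0.136 with TMM and 0.138 without. The reloading comparisons use the same unloaded libraries as the unloading comparisons.

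By subunit, 29 large-subunit genes rose and 4 fell in old mice, and 12 small-subunit genes rose and 1 fell. In young mice 18 large-subunit genes rose and 0 fell, and 7 small-subunit genes rose and 5 fell. The small-subunit shares there, 24.1% that rose and 17.2% that fell, did not exceed the 26.4% and 21.5% of all genes tested. For the large subunit 36.7% rose in young mice. In old mice 59.2% of large-subunit and 41.4% of small-subunit genes rose, against 27.8% of all genes tested. The log2 ratio of the large to the small sum was 1.061, 1.068, 1.067 and 1.078 in old reloaded muscles, against 0.939 to 1.023 in old unloaded muscles. In young mice it was 1.053, 1.092, 1.067 and 1.100 in reloaded muscles, against 0.927 to 1.006 in unloaded muscles. Every reloaded library lay above every unloaded library of its age. With summed RPKM values that held in young mice and not in old mice, where the ratio was 1.001, 1.027, 0.997 and 1.029 in reloaded muscles, against 0.885 to 1.002 in unloaded muscles. With subunits assigned by structure, the old libraries were still apart, and the old reloaded mean less the old unloaded mean was 0.051, in place of 0.083. The small-subunit sum was 606 ± 6.74 CPM in old reloaded muscles (SD, n = 4), against 570.3 ± 20.3 CPM in old unloaded muscles (SD, n = 6). In young mice it was 592 ± 17.8 CPM in reloaded muscles, against 581 ± 3.52 CPM in unloaded muscles (SD, n = 4 each).

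Mrps12 (chr7:28739641-28741782, minus strand, mm10) had the largest rise in old mice. It stood at 18.6, 17.1, 17.9 and 18.8 CPM in old reloaded muscles, against 9.48 to 12.3 CPM (median 10.5) in old unloaded muscles. In young mice it stood at 17.1, 15.1, 16.1 and 15.8 CPM in reloaded muscles, against 10.6, 10.6, 12.2 and 11.3 CPM in unloaded muscles. The groups did not overlap at either age, and the log2 fold change was 0.77 ± 0.07 in old mice (edgeR adjusted p = 2.29e-11) and 0.52 ± 0.07 in young mice (edgeR adjusted p = 5.05e-07). Mrpl19 (chr6:81957842-81965950, minus strand, mm10), whose bacterial counterpart lies at the interface of the subunits, had the largest rise in young mice. It stood at 18.4, 19.4, 23.3 and 23.6 CPM in old reloaded muscles, against 11.6 to 13.8 CPM (median 13.2) in old unloaded muscles. Young reloaded muscles held 24.4, 22.4, 22.01 and 20.9 CPM, against 13.96, 13.02, 11.6 and 11.9 CPM in young unloaded muscles. Again the groups did not overlap, and the log2 fold change was 0.70 ± 0.10 in old mice (edgeR adjusted p = 3.05e-07) and 0.83 ± 0.11 in young mice (edgeR adjusted p = 1.25e-07). Mrpl19 overlaps Gcfc2 on the other strand.

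Mrpl12 stood at 48.5, 47.4, 48.5 and 50.8 CPM in old reloaded muscles and at 51.3, 57.8, 52.1 and 51.2 CPM in young reloaded muscles, above every unloaded library of the same age. Its log2 fold change over unloaded muscles was 0.62 ± 0.09 in old mice and 0.62 ± 0.10 in young mice. Mrps22, a small-subunit protein specific to mitochondria, rose with 0.59 ± 0.09 in old mice and 0.55 ± 0.10 in young mice, and Mrpl48, of the central protuberance, with 0.54 ± 0.06 in old mice and 0.49 ± 0.06 in young mice. Mrps6, the counterpart of bacterial S6, which overlaps Slc5a3 on the same strand, rose with 0.67 ± 0.09 in old mice, and Mrps2, the counterpart of bacterial S2, with 0.57 ± 0.07 in young mice. Both were also higher at the other age. Mrps6 stood at 6.596 to 7.101 CPM in young reloaded muscles, against 4.244 to 5.732 CPM in young unloaded muscles. Mrps2 stood at 13.1 to 14.84 CPM in old reloaded muscles, against 10.17 to 12.25 CPM in old unloaded muscles. Neither passed the test of the age difference in the response (edgeR adjusted p = 0.427 for Mrps6 and 0.197 for Mrps2). Of the 7 listed genes of the central protuberance, 6 rose in old and 5 in young mice. Of the 8 listed genes of the small-subunit head, 3 rose and 0 fell in old mice, and 0 rose and 1 fell in young mice. The shares of all genes tested were 27.8% that rose and 23.5% that fell in old mice, and 26.4% and 21.5% in young mice.

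Mrps30 had the lowest change on reloading at both ages, and was the only gene of the set to fall at both. It stood at 19.2, 18.4, 19.3 and 18.3 CPM in old reloaded muscles and at 20.02, 17.97, 19.3 and 19.8 CPM in young reloaded muscles, below every unloaded and every control library of the same age. Its log2 fold change over unloaded muscles was -0.53 ± 0.08 in old mice (edgeR adjusted p = 6.6e-07) and -0.56 ± 0.08 in young mice (edgeR adjusted p = 1.24e-06). In old mice 4 counterparts of bacterial large-subunit proteins fell: Mrpl9 with -0.43 ± 0.06, Mrpl14 with -0.28 ± 0.10, Mrpl28 with -0.25 ± 0.08 and Mrpl23 with -0.19 ± 0.07. The call was lost for Mrpl14 without old reloaded 3, for Mrpl28 with only the groups compared, and without old unloaded 1 or old reloaded 1, and for Mrpl23 with the replicate block or with only the groups compared, and without old unloaded 5, old unloaded 6, old reloaded 1 or old reloaded 3. In young mice 4 small-subunit genes fell: Mrps15 with -0.32 ± 0.06, Mrps21 with -0.25 ± 0.06, Mrps24 with -0.25 ± 0.08 and Mrps25 with -0.22 ± 0.09. The call for Mrps25 held in 8 of 16 alternatives. It was lost with library totals in place of TMM, with no filter on low counts, with the stricter filter, with the replicate block or without the libraries with high Alb, and without young unloaded 2, young unloaded 3 or young reloaded 2.

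Markers of fibre types and of other cells moved with reloading. Of 12 macrophage markers, none at 0 in any library, 10 rose in old and 12 in young mice. Their summed level was 241 to 415 CPM in old reloaded muscles, against 167 to 243 CPM in old unloaded muscles, and 159.6 to 381 CPM in young reloaded muscles, against 123 to 177 CPM in young unloaded muscles. Of 6 markers of dividing cells, 5 rose in old and 6 in young mice. Their sum was 10.1 to 36.03 CPM in old reloaded muscles, against 2.59 to 7.43 CPM in old unloaded muscles, and 23.3 to 82.1 CPM in young reloaded muscles, against 1.32 to 2.88 CPM in young unloaded muscles. Aurkb was at 0 in 3 libraries and Ccnb1 and Cdk1 in 1 each. Of 7 fast-fibre markers, 1 rose and 4 fell at each age. Their summed level was 29240 to 34630 CPM in old reloaded muscles, against 34450 to 54960 CPM in old unloaded muscles. In young mice it was 35370 to 47800 CPM in reloaded muscles, against 48120 to 71760 CPM in unloaded muscles. Within this sum, the mean of Myh1 was 5865 CPM in old reloaded muscles, against 21770 CPM in old unloaded muscles, and 8049 against 34760 CPM in young mice. The mean of Myh2 went the other way, at 15900 against 6208 CPM in old and 17830 against 4020 CPM in young mice. Of 6 slow-fibre markers, 3 rose and 1 fell in old mice, and 2 rose and 2 fell in young mice. Of 6 liver markers, 6 rose in old mice and none was called in young mice. The part of fibre types and of these other cells in the changes of the ribosomal protein genes was not tested.

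Against controls, most of the set was still low after 3 days of reloading. This comparison shares its controls with the unloading comparison and its reloaded libraries with the reloading comparison. In old mice 47 of the 78 were lower in reloaded than in control muscles and 4 higher, against 21.1% lower and 21.8% higher among all genes tested. In young mice 60 were lower and 2 higher, against 22.9% lower and 26.8% higher among all genes tested. The median log2 fold change was -0.20 in old and -0.32 in young mice, and the median over all genes tested was 0.005 in old and 0.056 in young mice. By subunit, 31 large-subunit and 16 small-subunit genes were lower in old mice, and 41 large-subunit and 19 small-subunit genes in young mice. Without the 6 libraries with high Alb, 34 were lower and 4 higher in old mice, and 60 lower and 1 higher in young mice. The sum over all 78 genes was 1878 ± 27.1 CPM in old reloaded muscles (SD, n = 4), against 2183 ± 118 CPM in old controls (SD, n = 9). In young mice it was 1842 ± 52.7 CPM in reloaded muscles (SD, n = 4), against 2346 ± 116 CPM in controls (SD, n = 9).

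**Figure D5:**
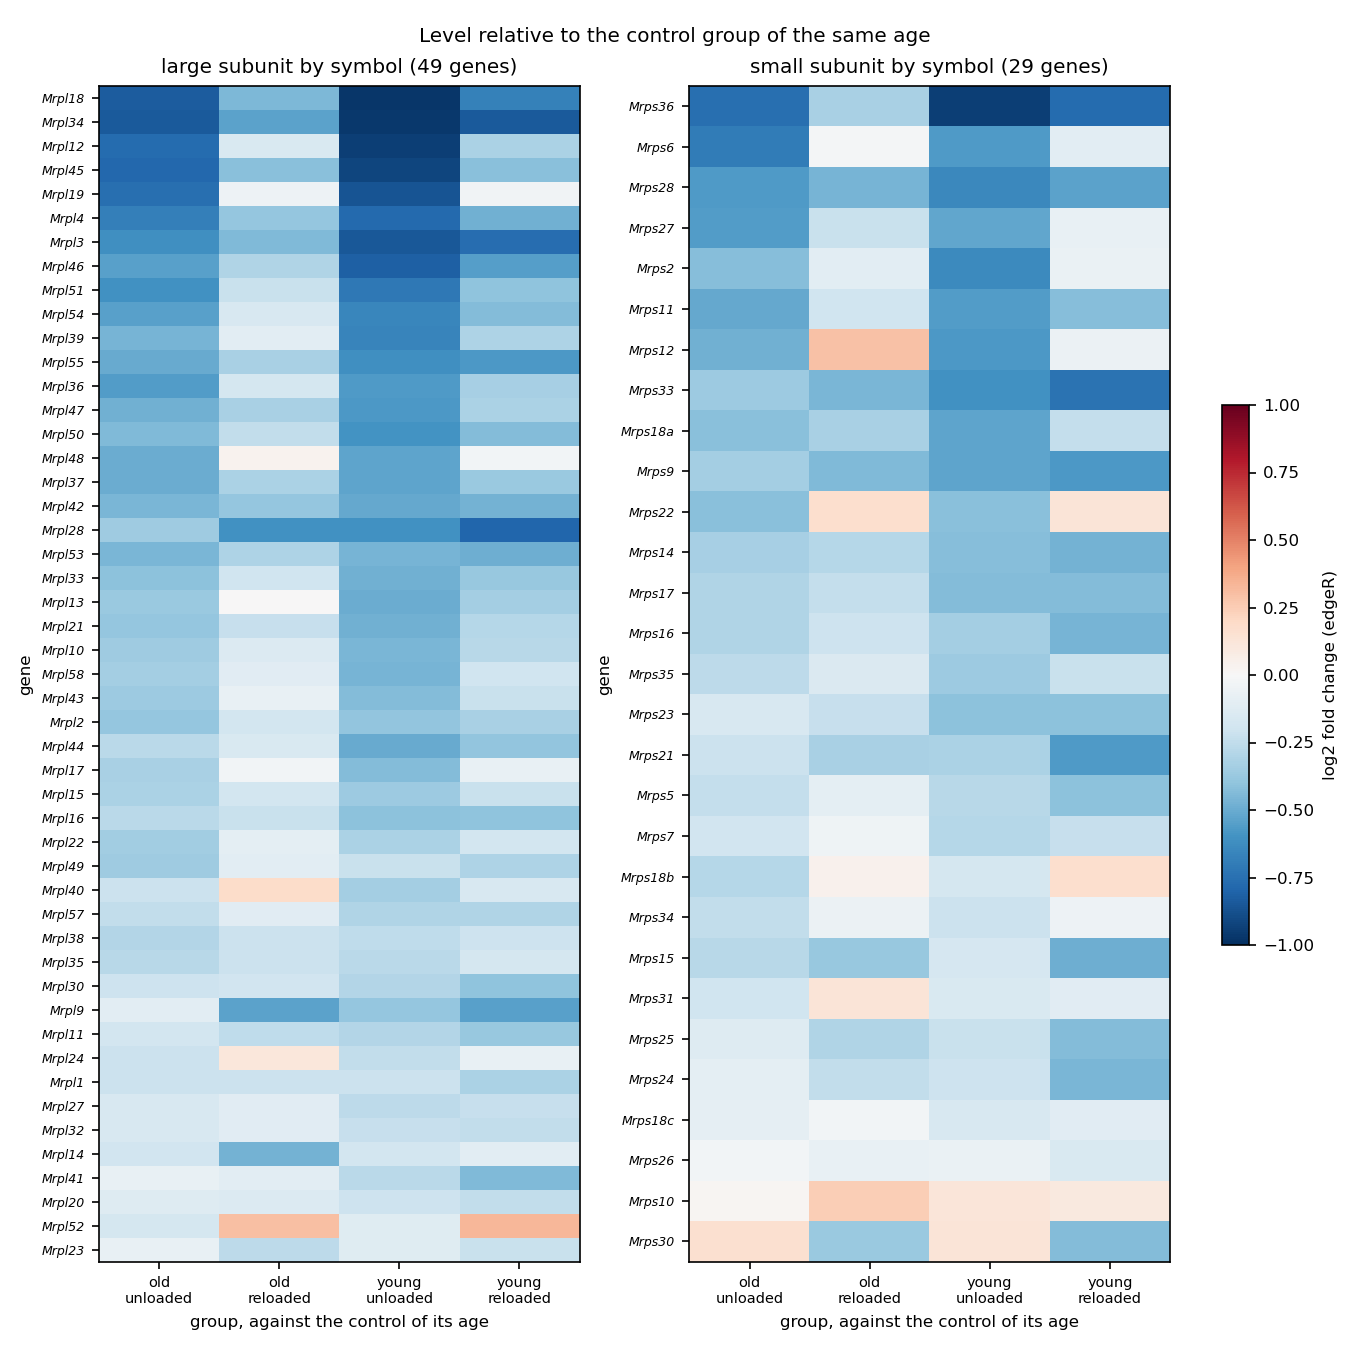
Log2 fold change (edgeR, colour) of each large-subunit gene (left) and small-subunit gene (right) in unloaded and reloaded muscles against controls of the same age, ordered by the mean change on unloading. Most cells are blue (lower); Mrps30 is pale red after unloading and blue after reloading at both ages, and Mrpl52 is red after reloading.

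Mrpl28 (chr17:26123503-26126614, plus strand, mm10), the counterpart of bacterial L28, had the lowest change over controls after reloading in old mice. It stood at 26.8, 33.1, 31.2 and 31.2 CPM in old reloaded muscles, against 39.8 to 54.98 CPM (median 47.4) in old controls. Among young mice, reloaded muscles held 25.2, 28.4, 25.5 and 28.3 CPM, against 43.7 to 49.9 CPM (median 46.1) in young controls. The groups did not overlap at either age, and the log2 fold change was -0.60 ± 0.08 in old mice (edgeR adjusted p = 1.95e-07) and -0.79 ± 0.08 in young mice (edgeR adjusted p = 6.39e-10). In unloaded muscles it stood at 30.6 to 44.1 CPM (median 36.2) in old mice and at 29.9, 31.4, 29.1 and 31.7 CPM in young mice. Mrpl34 was lowest in young mice, with -0.53 ± 0.09 in old mice and -0.84 ± 0.09 in young mice, and Mrps36 had -0.32 ± 0.09 in old mice and -0.77 ± 0.09 in young mice.

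Mrpl52 (chr14:54426909-54429751, plus strand, mm10), a protein of the central protuberance specific to mitochondria, was higher than in controls at both ages. It stood at 13.6, 12.1, 12.9 and 12.1 CPM in old reloaded muscles, against 9.42 to 12.3 CPM (median 10.1) in old controls. The level in young reloaded muscles was 14.4, 11.7, 11.8 and 12.2 CPM, against 8.73 to 11.2 CPM (median 9.95) in young controls. The groups overlapped in old mice and not in young mice, and the log2 fold change was 0.30 ± 0.08 in old mice (edgeR adjusted p = 0.00161) and 0.33 ± 0.08 in young mice (edgeR adjusted p = 0.000512). In old mice 3 others were higher than in controls: Mrps12 with 0.29 ± 0.06, Mrps10, the counterpart of bacterial S10, with 0.25 ± 0.07, and Mrpl40, of the central protuberance, with 0.18 ± 0.07. Mrps12 had stood at 12.7 to 16.2 CPM (median 15.04) in old controls, below all 4 old reloaded libraries, and at 16.1 to 17.6 CPM (median 16.5) in young controls, which the young reloaded libraries overlapped. In young mice Mrps18b was higher, with 0.17 ± 0.06, at 31.7, 27.3, 29.1 and 29.5 CPM in reloaded muscles. The call for Mrpl40 held in 14 of 21 alternatives, and was lost with library totals in place of TMM, with no filter on low counts, with the replicate block or with only the groups compared, and without old reloaded 1, old reloaded 3 or old reloaded 4. That for Mrps18b was lost without the libraries with high Alb, and without young reloaded 1, young reloaded 3 or young reloaded 4.

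In control muscle, 27 of the 78 genes were lower in old than in young mice and 0 higher, against 11.6% lower and 12.1% higher among all genes tested. Of the 27, 15 were of the large and 12 of the small subunit. The median log2 fold change was -0.09, and the median over all genes tested was 0.006. Every old control lay below every young control for 3 genes, as for 1.32% of all genes tested. The sum over all 78 genes, 1989 to 2357 CPM in old controls, overlapped the 2233 to 2545 CPM of young controls. Young controls 1 to 4 held 2382 to 2545 CPM and 5 to 9 held 2233 to 2296 CPM. Old controls 1 to 6 held 1989 to 2238 CPM. Old controls 7 to 9 held 2258 to 2357 CPM. The labels give no reason for these cuts, which follow the sums themselves, so comparing the parts cannot test the age difference. Beside the 0 that were higher, edgeR gave 1 at an unadjusted p under 0.05 (all genes tested: 18.4%), and 0 by DESeq2. Without the 6 libraries with high Alb, 30 were lower and 0 higher. The lowest changes were those of Mrpl34, at -0.39 ± 0.07 (edgeR adjusted p = 0.000149), Mrps36, at -0.32 ± 0.07 (edgeR adjusted p = 0.000665), and Mrps33, of the small-subunit head, at -0.29 ± 0.05 (edgeR adjusted p = 7.41e-05). For Mrpl12 the change was -0.29 ± 0.07 and for Mrps12 -0.17 ± 0.05. The log2 ratio of the large to the small sum was 1.121 ± 0.015 in old controls and 1.115 ± 0.013 in young controls (SD, n = 9 each). Markers of fibre type also differed between the controls. Of 6 slow-fibre markers 4 were higher in old mice, with a summed level of 24250 to 39070 CPM in old controls, against 21290 to 34390 CPM in young controls. Of 7 fast-fibre markers 4 were lower, with 19740 to 35040 CPM in old controls, against 34280 to 44640 CPM in young controls. Of 6 markers of dividing cells 3 were lower, with 1.72 to 6.54 CPM in old controls, against 3.21 to 19.4 CPM in young controls, and 1 of 5 markers of red blood cells was higher. Their part in the lower levels of the ribosomal protein genes was not tested.

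In unloaded muscle 3 genes (3.8%) were lower in old than in young mice and 0 higher. Among all genes tested 5.16% were lower and 4.64% higher, so neither share of the set exceeded that of all genes. The 3 were Mrps6 with -0.28 ± 0.09, Mrps15, the counterpart of bacterial S15, with -0.27 ± 0.06, and Mrpl38, of the central protuberance, with -0.22 ± 0.06. The call for Mrps6 held in only 3 of 18 alternatives. It was lost by DESeq2, with library totals in place of TMM, with no filter on low counts, with the transcript of the highest mean, with the replicate block, with only the groups compared or without the libraries with high Alb, and without young unloaded 2, young unloaded 3, young unloaded 4, old unloaded 1, old unloaded 3, old unloaded 4, old unloaded 5 or old unloaded 6. That for Mrpl38 held in 13 of 18 alternatives, and was lost with library totals in place of TMM or with only the groups compared, and without young unloaded 4, old unloaded 2 or old unloaded 6. Beside the 0 that were higher, edgeR gave 10 at an unadjusted p under 0.05 (all genes tested: 12.6%), while by DESeq2 3 passed. With library totals in place of TMM, 5 were higher and 1 lower, and without the 6 libraries with high Alb, 0 were higher and 2 lower.

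In reloaded muscle 6 genes (7.7%) were higher in old than in young mice and 0 lower. Among all genes tested 10.0% were higher and 9.67% lower, so neither share of the set exceeded that of all genes. The largest changes among the 6 were those of Mrpl33, the counterpart of bacterial L33, with 0.31 ± 0.07, Mrpl41, specific to mitochondria and overlapping Dph7 on the other strand, with 0.31 ± 0.09, and Mrps5 with 0.28 ± 0.07. The call for Mrpl33 held in 15 of 16 alternatives and was lost without the libraries with high Alb. The call for Mrpl41 held in 12 of 16 alternatives, and was lost with library totals in place of TMM, with only the groups compared or without the libraries with high Alb, and without old reloaded 3. That for Mrps5 held in 13 of 16 alternatives and was lost with library totals in place of TMM, with only the groups compared or without the libraries with high Alb. Beside the 0 that were lower, edgeR gave 5 at an unadjusted p under 0.05 (all genes tested: 16.1%), while by DESeq2 0 passed. With library totals in place of TMM, 1 was higher and 5 lower, and without the 6 libraries with high Alb, 0 were higher and 1 lower. The latter compared only old reloaded 1 and 3 with young reloaded 3 and 4, so fewer libraries and high Alb cannot be told apart.

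The difference between the ages in each response was tested with an interaction term. For unloading, 0 of the 78 genes passed with a higher and 0 with a lower response in old mice, as did 0% and 0% of all genes tested. At an unadjusted p under 0.05, edgeR gave 11 higher and 0 lower, against 4.96% higher and 4.94% lower of all genes tested, and DESeq2 called 0 in either direction. The median of the old minus the young response was 0.09 on the log2 scale, with 65 genes above 0 and 13 below, while 49.2% of all genes tested lay above 0. With library totals in place of TMM the median was 0.147, with 72 genes above 0 and 21 higher at an unadjusted p under 0.05 by edgeR, and the median over all genes was 0.050 in place of -0.004. The smallest p was that of Mrpl9, at 0.28 ± 0.08 (edgeR adjusted p = 0.221). For Mrpl12 the difference was 0.17 ± 0.12, with a 95% interval of -0.056 to 0.406.

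For reloading, 0 of the 78 genes passed with a higher and 0 with a lower response in old mice, against 0.492% and 0.286% of all genes tested. At an unadjusted p under 0.05, edgeR gave 11 higher and 4 lower, against 8.41% higher and 8.12% lower of all genes tested. With library totals in place of TMM it gave 1 higher and 5 lower, and DESeq2 called 1 higher and 0 lower. The median difference was 0.039 with TMM and -0.085 with library totals, where the median over all genes was -0.134 in place of -0.010. The smallest p was that of Mrpl49, specific to mitochondria and overlapping Syvn1 on the other strand, at 0.33 ± 0.10 (edgeR adjusted p = 0.075).

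Other genes of mitochondrial translation also changed on unloading. Among all genes tested, 23.2% fell and 19.5% rose in old mice, and 21.7% fell and 19.1% rose in young mice. Of 5 mitochondrial ribosomal proteins without an Mrp symbol, 4 fell in old and 4 in young mice, among them Ptcd3, an RNA-binding protein of the small subunit, with -0.51 ± 0.05 in old mice and -0.64 ± 0.06 in young mice. Dap3, a GTP-binding protein of the small subunit also known from cell death, was not called on unloading, with 0.01 ± 0.05 in old mice and -0.04 ± 0.05 in young mice, and fell on reloading, with -0.33 ± 0.06 in old mice and -0.50 ± 0.06 in young mice. Of 14 translation factors, 9 fell in old and 9 in young mice, and 0 rose. Tufm, the elongation factor that brings tRNAs to the ribosome, had -0.58 ± 0.04 in old mice and -0.91 ± 0.05 in young mice, and Taco1, an activator of the message for cytochrome oxidase subunit I, had -0.998 ± 0.09 in old mice and -1.27 ± 0.10 in young mice. On reloading 6 of them (42.9%) rose and 3 (21.4%) fell in old mice, against 27.8% that rose and 23.5% that fell among all genes tested. In young mice 5 (35.7%) rose and 2 (14.3%) fell, against 26.4% that rose and 21.5% that fell among all genes tested.

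Of 26 assembly factors, 10 fell and 0 rose on unloading in old mice, and 18 fell and 1 rose in young mice. The fallen share was 38.5% in old and 69.2% in young mice, against 23.2% and 21.7% of all genes tested. Nsun4, a ribosomal RNA methyltransferase, had -0.57 ± 0.05 in old mice and -0.72 ± 0.06 in young mice. Of 9 genes of mitochondrial transcription and its messages, 4 fell and 1 rose in old mice, and 6 fell and 0 rose in young mice. Lrpprc, which stabilises mitochondrial messages, had -0.69 ± 0.07 in old mice and -0.75 ± 0.08 in young mice, and Tfam, which packages mitochondrial DNA, had -0.42 ± 0.06 in old mice and -0.50 ± 0.07 in young mice. On reloading 5 of the 26 assembly factors (19.2%) rose and 5 fell in old mice, and 4 (15.4%) rose and 4 fell in young mice. Of the 9 transcription genes 2 rose and 4 fell in old mice, and 1 rose and 3 fell in young mice. All genes tested had 27.8% that rose and 23.5% that fell in old mice, and 26.4% and 21.5% in young mice. Tfam rose on reloading with 0.37 ± 0.07 in old mice and 0.38 ± 0.08 in young mice. Polrmt, the mitochondrial RNA polymerase, fell with -0.50 ± 0.10 in old mice and -0.42 ± 0.10 in young mice.

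Genes of respiratory complex I were taken by symbol (Ndufa, Ndufb, Ndufc, Ndufs or Ndufv plus a number), without a check of structure. The 37 genes so taken include Ndufa4 and Ndufa4l2. Of the 37, 33 fell on unloading in old mice and 33 in young mice, with medians of -0.37 and -0.53. On reloading 3 of them rose and 14 fell in old mice, with a median of -0.10, and 4 rose and 17 fell in young mice, with a median of -0.17. The medians of the mitochondrial ribosomal proteins on reloading were 0.16 in old and 0.10 in young mice. Of 82 genes for cytosolic ribosomal proteins, 32 rose and 1 fell on unloading in old mice, and 32 rose and 2 fell in young mice. On reloading 63 of them rose and 1 fell in old mice, and 29 rose and 3 fell in young mice. Among all genes tested, 23.2% fell and 19.5% rose on unloading in old mice, and 21.7% fell and 19.1% rose in young mice. On reloading 27.8% rose and 23.5% fell in old mice, and 26.4% rose and 21.5% fell in young mice. Differences between these families were not tested. The ribosomal RNAs and the messages this ribosome translates were not analysed here.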

How the data were processed

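RNA-seq of 36 soleus muscles was used, 1 mouse per library, grouped by the labels' age and treatment. The authors deposited estimated counts of reads per transcript, per the file headers, with RPKM values and transcript lengths beside them; mm10, Partek 6.6, DESeq, TopHat and TopHat2 2.0.1 are named in the submitters' processing notes, with no role or order. The labels name both the TruSeq RNA and the TruSeq Stranded Total RNA kit, and they do not say whether reads were counted by strand.

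The 31668 transcript rows were summed per symbol after 56 rows whose symbols had become dates were restored, giving 21156 genes; 0 rows were mitochondrially encoded. Sums, 94.94% of them whole within 0.01 reads, were rounded. Genes were filtered with filterByExpr and fitted in 1 model of the 6 groups with edgeR 4.0.16 (TMM, quasi-likelihood test, R 4.3.3, limma 3.58.1), with adjusted p over 15031 genes and a threshold of 0.05. Alternatives were DESeq2 1.42.0, library totals without TMM, no or a stricter filter (5 CPM in 4 libraries), the transcript with the highest mean, only the groups compared, a block for mouse number, each library left out and, added after seeing the data, the 6 libraries with Alb above 20 CPM left out. P-values measure the spread between mice. No 2 libraries of a group were duplicates: over 105 pairs the lowest chi-square per degree of freedom was 8.57.

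The genes and lists were chosen with earlier results of these data known. Genes were named by a rule: in each loading comparison the 5 largest rises and falls among called genes with at least 8 CPM and the 3 smallest adjusted p, in the others the 3 largest, any gene called against the direction of most, and 13 genes whatever their result. Promoters come from RefSeq (GRCm38.p6). The model was tested on simulated data.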

Additional observations from a re-analysis of the deposited data

Results flagged for a closer look

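In 84 groups of 4 to 9 libraries of the genes shown per library and the subunit sums, 5 had a library far from the others, and chance flags about 1 in 20 groups. Mrpl52 was high in old control 8, at 12.27 CPM. Mrps18c was low in old reloaded 1, at 13.55 CPM, Mrpl18 was high in old reloaded 4, at 45.28 CPM, and Mrpl12 was high in young reloaded 2, at 57.81 CPM. The large-subunit sum was high in young unloaded 2, at 1168.0 CPM, a library with Alb above 20 CPM, as are old reloaded 4 and young reloaded 2.

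For 2 genes every reloaded library of one age lay on one side of the unloaded mean and every library of the other age on the opposite side. The old minus the young response to reloading was -0.353 on the log2 scale for Mrpl14 (edgeR adjusted p = 0.197) and 0.334 for Mrpl49 (edgeR adjusted p = 0.075), so neither passed the test of the difference.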

How the results depend on the processing

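Of 102 calls of named genes, 81 kept their direction and their side of the threshold in every alternative, and 21 lost the call in some; none changed sign. Without TMM, the median of the set was -0.264 on unloading in old mice (-0.342 with TMM); on reloading in old mice 24 rose, 14 fell and the median was 0.053; between ages, 5 were higher and 1 lower in unloaded muscle, and 1 higher and 5 lower in reloaded muscle, with a median of -0.044 (0.037 with TMM); and for the age difference in the reloading response 1 was lower and the median was -0.085 (0.039 with TMM). On unloading in old mice 0 rose with no filter, with a replicate block for mouse number, or with only the groups compared. With only the groups compared, 9 fell on reloading in young mice, 3 fell on reloading in old mice, 1 was higher in old controls, 1 lower in old unloaded and 1 higher in old reloaded muscles. With the stricter filter, 7 were higher than controls after reloading in old mice, 1 was higher in old controls, 4 were higher in old unloaded and 1 was lower in old reloaded muscle. With no filter 3 were higher in old reloaded muscle. DESeq2 gave 3 higher in old unloaded muscle and 1 for the age difference in the reloading response. Without the libraries with high Alb, 1 was higher than controls after reloading in young mice, and 0 were higher and 1 lower in old reloaded muscle. By structure, the large over small difference between old reloaded and old control muscles was -0.080.

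Leaving out each library in turn gave 0 to 1 rises on unloading in old mice, 3 to 8 falls on reloading in old mice, and 1 to 4 genes above controls after reloading in young mice. Between ages it gave 0 to 1 higher in controls, 0 to 2 higher and 1 to 3 lower in unloaded muscle, 3 to 8 higher and 0 to 2 lower in reloaded muscle, and 0 to 1 higher for the reloading difference. The causes were not tested.

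Same-numbered mice did not deviate together (correlations of -0.42 to 0.43), so the numbers do not pair them; with the replicate block 1 was higher in old unloaded muscle. Groups of 4 libraries limit what the reloaded comparisons can resolve.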
